A study of Mus musculus with 6 samples.

Results

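The genes described here belong to the unfolded protein response and to the integrated stress response (ISR). These 35 named genes were chosen from what is known of these pathways, but with earlier results of these data known. All 35 were found by symbol among the 22248 genes of the deposited table, and all 35 passed the filter of a mean FPKM of at least 1, which left 11687 genes for testing. FPKM are fragments per kilobase of transcript, scaled to library size, so levels of different genes can be set side by side. The RNA came from bone-marrow-derived macrophages (BMDMs) of mice labelled C57BL/6, which were grown in macrophage colony-stimulating factor for 7 days and left unstimulated. The 3 control libraries are from mice with the Lyz2cre allele, and the 3 CITED2-deficient libraries are from Cited2fl/fl:Lyz2cre mice, which carry the same Cre allele and a pair of floxed *Cited2* alleles. In both groups the *Lyz2* locus, active in myeloid cells, drives Cre, so it is no feature of the CITED2-deficient mice alone. The labels give an age of 10 weeks and the methods give 8 weeks for the mice whose marrow was cultured. Nothing in the labels says which mouse each library came from, so the p-values measure the spread between these libraries.

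The unfolded protein response begins at 3 sensors in the membrane of the endoplasmic reticulum (ER), namely IRE1 (made from *Ern1*), ATF6 and PERK (made from *Eif2ak3*). IRE1 splices the mRNA of *Xbp1*, ATF6 is cut to release a transcription factor, and PERK phosphorylates the translation factor eIF2. Phosphorylated eIF2 is also the shared output of the other ISR kinases, which sense amino acid shortage, heme shortage and double-stranded RNA, and it favors translation of ATF4. Macrophages make much secreted and membrane protein, and their ER chaperones are abundant. RNA levels of genes measure neither the splicing of *Xbp1*, nor the cleavage of ATF6, nor the phosphorylation of eIF2.

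The control sequences of these genes include short elements that recur between promoters, and these were read from RefSeq promoters (GRCm38.p6). ERSE was first defined in promoters of ER chaperone genes such as *Hspa5*, so its frequency among these genes is no independent finding. Both strands of the 250 bases before the start annotated by RefSeq were searched for exact matches. The ER stress element (ERSE) was written as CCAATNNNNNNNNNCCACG, ERSE-II as ATTGGNCCACG, the UPR element as TGACGTGG and the core of the C/EBP-ATF element as TGATGNAA. Of the 35 genes 31 had a promoter entry, and *Atf6*, *Hyou1*, *Manf* and *Derl1* had none. ERSE was found at 9 of these 31 genes (29%), while 37 of all 32851 promoters in the table held it (0.113%). The C/EBP-ATF core was found at 4 of the 31 genes (12.9%) and in 3.45% of all promoters. The shares of the 31 genes are per gene and those of all promoters are per promoter. These genes had 34 promoters, of which 9 held ERSE and 4 held the C/EBP-ATF core. *Herpud1* alone among them held ERSE-II (0.0304% of all promoters), and the UPR element was found at 0 of them (0.563% of all promoters). The windows below are shown so that genes with the same element can be set beside their RNA levels, which follow. ERSE was also found at *Hsp90b1*, *Creld2* and *Derl3*, whose windows are not shown and whose RNA did not pass the threshold used below. Each is written 5′ to 3′ on the gene's strand in GRCm38.p6 with the match in capitals. A match is a description of the letters and not a measured binding site.
*Hspa5*, ERSE, chr2:34772013-34772055, plus strand: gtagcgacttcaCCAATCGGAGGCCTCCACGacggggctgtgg
*Calr*, ERSE on the opposite strand, chr8:84847063-84847105, minus strand: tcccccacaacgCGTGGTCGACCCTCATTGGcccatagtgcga
*Pdia6*, ERSE, chr12:17266479-17266521, plus strand: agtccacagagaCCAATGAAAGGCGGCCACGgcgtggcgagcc
*Syvn1*, ERSE, chr19:6046520-6046562, plus strand: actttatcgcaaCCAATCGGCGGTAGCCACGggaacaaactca
*Canx*, ERSE, chr11:50325788-50325830, minus strand: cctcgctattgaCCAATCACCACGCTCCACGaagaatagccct
*Dnajc3*, ERSE, chr14:118937815-118937857, plus strand: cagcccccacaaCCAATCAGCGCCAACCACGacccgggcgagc
*Herpud1*, ERSE-II, chr8:94386365-94386399, plus strand: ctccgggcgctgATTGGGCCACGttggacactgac
*Herpud1*, C/EBP-ATF core on the opposite strand, chr8:94386305-94386336, plus strand: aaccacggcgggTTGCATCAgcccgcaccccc
*Atf3*, C/EBP-ATF core on the opposite strand, chr1:191183424-191183455, minus strand: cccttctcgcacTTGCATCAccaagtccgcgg
*Chac1*, C/EBP-ATF core on the opposite strand, chr2:119351037-119351068, plus strand: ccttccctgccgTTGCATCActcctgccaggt
*Asns*, C/EBP-ATF core, chr6:7693213-7693244, minus strand: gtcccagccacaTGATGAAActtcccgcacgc

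The libraries held 17289286 to 18952077 fragments in control BMDMs and 22583995 to 26100410 in CITED2-deficient BMDMs, as recovered from the FPKM. *Cited2* had a mean FPKM of 75.5 in control and 8.01 in CITED2-deficient BMDMs, and the groups did not overlap. Macrophage markers were abundant in every library, with summed FPKM of 5818 to 5889 in control and 5472 to 5555 in CITED2-deficient BMDMs. Their members differed, and of the 9 markers 1 was higher and 5 were lower by the threshold used below. Among all genes tested, 16.7% were higher and 34.6% lower. *Adgre1*, *Cd68* and *Csf1r*, the most abundant, were at 0.802, 1.04 and 0.807 times the control level. *Fcgr1* was at 2.80 times and *Itgam* at 0.567 times the control level. The summed FPKM of 10 fibroblast or stromal markers was 44.2 to 52.8 in control libraries and 178, 178 and 561 in CITED2-deficient libraries, the highest being replicate 1. Granulocyte markers summed to 650 to 719 in control and 504 to 599 in CITED2-deficient BMDMs, but the members differed. *S100a9*, *S100a8* and *Ngp*, the most abundant of them, were at 0.931, 0.764 and 0.795 times the control level. *Elane*, *Mpo* and *Prtn3* were at 0.174, 0.120 and 0.177 times the control level, and *Retnlg* was at 6.93 times. Of the B cell and plasma cell markers, *Sdc1* was at 39.4 to 46.2 in control and 68.1 to 74.2 in CITED2-deficient libraries. *Jchain* was at 11.6 to 15.5 and 14.1 to 19.0, with overlapping groups. *Cd79a* and *Cd79b* were at 0.829 and 0.838 times the control level, also with overlapping groups. *Mzb1*, a plasma cell gene, was at 0.468 to 0.703 and 1.14 to 1.57, while *Ms4a1*, *Pax5* and *Tnfrsf17* were under 1 in all 6 libraries. *Lyz2*, whose locus drives Cre, fell from 31.3 ± 1.03 to 9.75 ± 0.333 (SD, n = 3 each). In bulk RNA a change in the number of cells of a type cannot be told from a change of RNA per cell.

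Of the 35 genes, 18 rose in CITED2-deficient BMDMs, 5 fell and 12 missed the threshold (adjusted p under 0.05 in limma on log2(FPKM + 1), fitted over all 11687 genes). Among all genes tested, 16.7% passed as higher and 34.6% as lower. The median log2 fold change of the 35 genes was 0.16, and that of all genes tested was -0.10. The balance between rises and falls depends on the scaling of the libraries, so the genes were also read after median-ratio scaling, in which the libraries are brought to a shared level at the typical gene. Then 21 of the 35 rose and 3 fell, against 22.5% and 22% of all genes, and the medians were 0.26 and -0.013. The groups did not overlap for 25 of the 35 genes, and for 59.9% of all genes tested. On the log2(FPKM + 1) scale a fold change of at least 2 was reached by *Ddit3* and *Trib3*, both higher, and by none of the genes that fell, while 3.72% of all genes tested were higher and 1.54% lower by this rule.

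**Figure D1:**
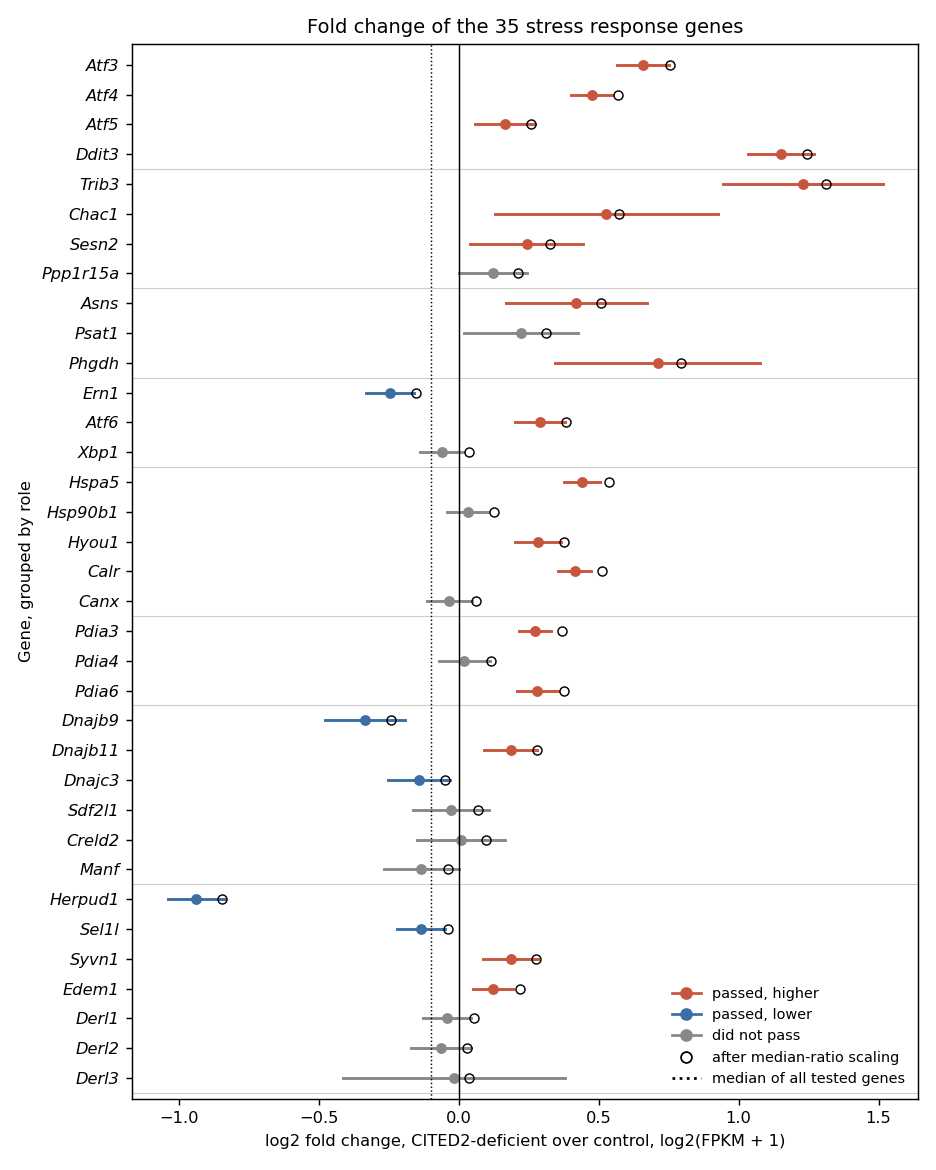
Log2 fold change on log2(FPKM + 1), CITED2-deficient over control BMDMs, for the 35 genes grouped by role. Filled points are the values as deposited with 95% confidence intervals from limma (n = 3 per group), open circles are the values after median-ratio scaling, and the dotted line is the median of all tested genes (-0.10). The ISR genes at the top lie right of 0, and *Herpud1* lies farthest left at -0.94.

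The 4 ISR transcription factors rose in CITED2-deficient BMDMs, beside 16.7% of all genes tested. *Ddit3* encodes CHOP, a factor induced downstream of ATF4 that is tied to stress-induced cell death. Control libraries 1, 2 and 3 had an FPKM of 27.4, 25.7 and 28.4, and CITED2-deficient libraries 1, 2 and 3 had 61.0, 64.9 and 58.7. Every CITED2-deficient library lay above 2 times every control library. The log2 fold change of *Ddit3* (chromosome 10, 127290774 to 127296288 in mm10) was 1.15 (standard error, SE, 0.05; limma adjusted p = 2.03e-07). *Mars*, which encodes methionyl-tRNA synthetase and overlaps *Ddit3* on the opposite strand, also rose, from a mean of 18.6 to 23.7 (log2 fold change 0.33). The library kit keeps the strand, but the sources used here do not say whether the strand was used in counting.

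*Atf3*, a stress-induced repressor that also acts on inflammatory genes of macrophages, was the most abundant of the 4. Its FPKM was 188, 206 and 188 in control libraries and 302, 303 and 315 in CITED2-deficient libraries. These groups were far apart compared with the spread within them (log2 fold change 0.66 with SE 0.04, limma adjusted p = 1.63e-06). *Atf4* itself, the central factor of the ISR, was at 102, 97.3 and 95.3 in control libraries and at 138, 136 and 137 in CITED2-deficient libraries. The 3 CITED2-deficient values lay within 2 FPKM of each other, and the log2 fold change was 0.47 (SE 0.03; limma adjusted p = 3.92e-06). *Atf5*, another factor translated under eIF2 phosphorylation, had the smallest change of the 4, from a mean of 29.4 ± 0.611 to 33.1 ± 1.69 (SD, n = 3 each). Its log2 fold change of 0.16 (limma adjusted p = 0.0182) did not pass without control replicate 1 (0.15, adjusted p = 0.0606) or without CITED2-deficient replicate 1 (0.12, adjusted p = 0.0620).

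The feedback and effector genes lie downstream of ATF4 and CHOP. *Trib3*, a pseudokinase induced by both factors, had the largest log2 fold change of the 35 genes. Its FPKM was 4.76, 5.64 and 3.70 in control libraries and 12.93, 10.9 and 12.95 in CITED2-deficient libraries, so the groups stood well apart. The log2 fold change was 1.23 (SE 0.13; limma adjusted p = 4.72e-05), and the means differed 2.61-fold. Behind these values were 74 to 103 fragments per control library and 260 to 357 per CITED2-deficient library.

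*Chac1*, which breaks down glutathione and is a sensitive ATF4 target, was the least abundant of the 35 genes in control BMDMs. It was represented by 25, 20 and 15 fragments in control libraries and 79, 51 and 42 in CITED2-deficient libraries, or an FPKM of 0.808, 0.707 and 0.484 against 1.90, 1.38 and 0.983. The groups did not overlap, but the CITED2-deficient libraries were spread widely. Replicate 1, which also held the highest fibroblast marker sum, was at 1.61 times the mean of replicates 2 and 3, the highest such ratio of the 35 genes. Its log2 fold change of 0.53 (limma adjusted p = 0.0329) understates a 2.13-fold difference of means, since 1 is added before the log. That call was lost with no filter on low values (adjusted p = 0.0575), without control replicate 2 (adjusted p = 0.0588) or replicate 3 (adjusted p = 0.0976), and without CITED2-deficient replicate 1 or 2 the gene fell below the filter.
*Sesn2*, a leucine-sensing inhibitor of mTORC1, rose from a mean of 5.77 ± 0.598 to 7.001 ± 0.424 (SD, n = 3 each), and its log2 fold change was 0.24 (limma adjusted p = 0.0464). This call is at the edge of the threshold. With 1 library left out it was kept only when that library was control replicate 2, with log2 fold changes of 0.17 to 0.29 over the 6 fits (adjusted p of 0.0600 without control replicate 1, 0.147 without control replicate 3, 0.136 without CITED2-deficient replicate 1, 0.0955 without replicate 2 and 0.0568 without replicate 3). *Ppp1r15a* encodes GADD34, the phosphatase subunit that reverses eIF2 phosphorylation. Its mean was 13.2 in control and 14.5 in CITED2-deficient BMDMs, and it did not pass (log2 fold change 0.12, 95% confidence interval -0.0010 to 0.24), although the groups did not overlap. After median-ratio scaling it passed (0.21, limma adjusted p = 0.00984).

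**Figure D2:**
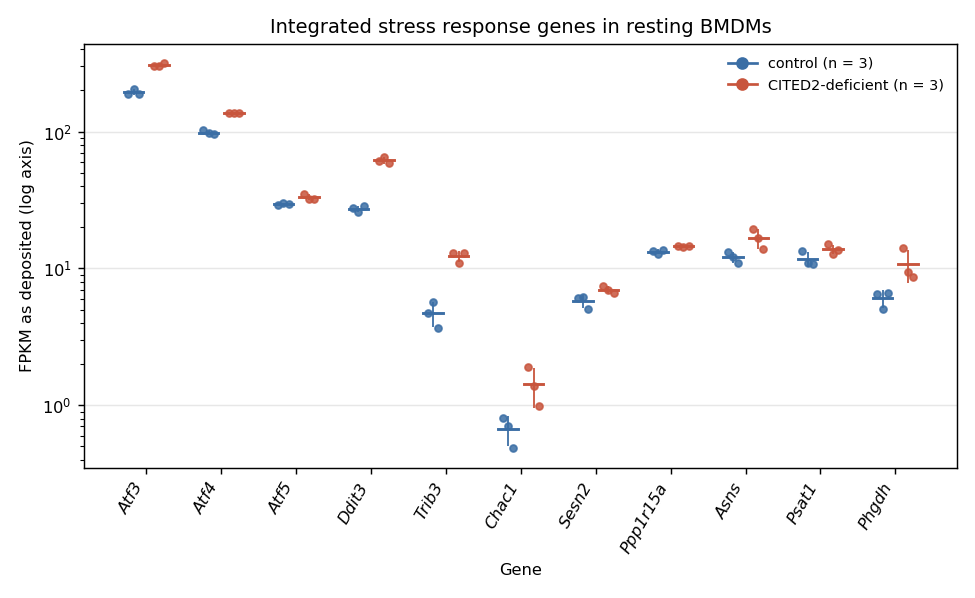
FPKM of the 11 ISR genes in each library on a log axis, with points for libraries, bars for means and vertical lines for SD (n = 3 per group). *Ddit3* and *Trib3* show the widest gap between control and CITED2-deficient libraries, and *Psat1* is the gene whose groups overlap.

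Among the enzymes of serine and asparagine synthesis, which ATF4 induces, 2 of 3 rose, beside 16.7% of all genes tested. *Phgdh* catalyzes the first step of serine synthesis from glycolysis and had an FPKM of 6.48, 5.04 and 6.64 in control libraries and 14.0, 9.48 and 8.63 in CITED2-deficient libraries. Its log2 fold change was 0.71 (SE 0.16; limma adjusted p = 0.00561). *Asns*, asparagine synthetase, was at 13.3, 12.04 and 10.98 in control libraries and at 19.3, 16.7 and 13.9 in CITED2-deficient libraries (log2 fold change 0.42, limma adjusted p = 0.0118). As for *Chac1*, CITED2-deficient replicate 1 held the highest value of both genes, 1.55 and 1.26 times the mean of replicates 2 and 3. That library also held the highest fibroblast marker sum, at 3.15 times the mean of replicates 2 and 3. The median of this ratio was 1.02 over the 35 genes and 1.007 over all genes tested. Replicates 2 and 3 also had fibroblast marker sums above control (178 and 178 against 44.2 to 52.8). The part of fibroblast or stromal cells in the results for these 3 genes, and for the rest of the 35, was not tested. Without CITED2-deficient replicate 1 *Phgdh* and *Asns* still passed, with log2 fold changes of 0.52 and 0.31. That fit keeps replicates 2 and 3, so it does not remove the difference in these markers. *Psat1*, the next enzyme of serine synthesis, had means of 11.7 and 13.8 and overlapping groups, and it did not pass (0.22, 95% confidence interval 0.019 to 0.43, limma adjusted p = 0.0661). It passed after median-ratio scaling (0.31, limma adjusted p = 0.0159), without control replicate 1 (0.31, adjusted p = 0.0138) and without CITED2-deficient replicate 2 (0.28, adjusted p = 0.0479).

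A longer list of 35 other ISR genes, with kinases, eIF2 and eIF2B subunits and ATF4 targets, had 30 tested genes. Of these 13 rose and 3 fell, beside 16.7% higher and 34.6% lower of all genes tested. The median log2 fold change of the list was 0.12. *Nupr1*, a small stress-induced chromatin protein, had the largest rise, from a mean of 3.91 to 10.8 (log2 fold change 1.28, limma adjusted p = 5.56e-05). *Eif2ak2*, the double-stranded RNA kinase PKR and also an interferon-induced gene, rose from 40.3 to 95.03 (1.22, limma adjusted p = 2.74e-08). *Mthfd2*, the mitochondrial folate enzyme that ATF4 induces, rose from 17.7 to 38.9 (1.10, limma adjusted p = 7.66e-06). The kinases of the ISR did not move together. The PERK gene *Eif2ak3* fell, from 21.5 to 16.1 (-0.39, limma adjusted p = 0.000843), while *Eif2ak1*, the heme-regulated kinase (-0.079), and *Eif2ak4*, the amino acid sensor GCN2 (-0.19), did not pass. The other genes that fell were *Slc1a5*, a glutamine carrier (-0.33), and *Cebpg*, a partner of ATF4 on DNA (-0.22).

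The sensors of the unfolded protein response and their factor *Xbp1* went different ways. *Ern1* was at 51.2, 50.5 and 51.7 in control libraries and at 41.9, 44.7 and 42.4 in CITED2-deficient libraries. It fell, with a log2 fold change of -0.25 (SE 0.04; limma adjusted p = 0.000673). *Atf6* was at 32.8, 33.5 and 33.6 in control libraries and at 40.9, 42.0 and 39.7 in CITED2-deficient libraries, and it rose (0.29 with SE 0.04, limma adjusted p = 0.000286). In both genes the gap between groups was wider than the spread within either. *Xbp1* was at 96.8, 96.1 and 94.4 against 93.2, 88.3 and 94.2. The groups of *Xbp1* lay close without overlapping, and the difference did not pass (-0.059, 95% confidence interval -0.14 to 0.020). After median-ratio scaling *Xbp1* was at 0.036.

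**Figure D3:**
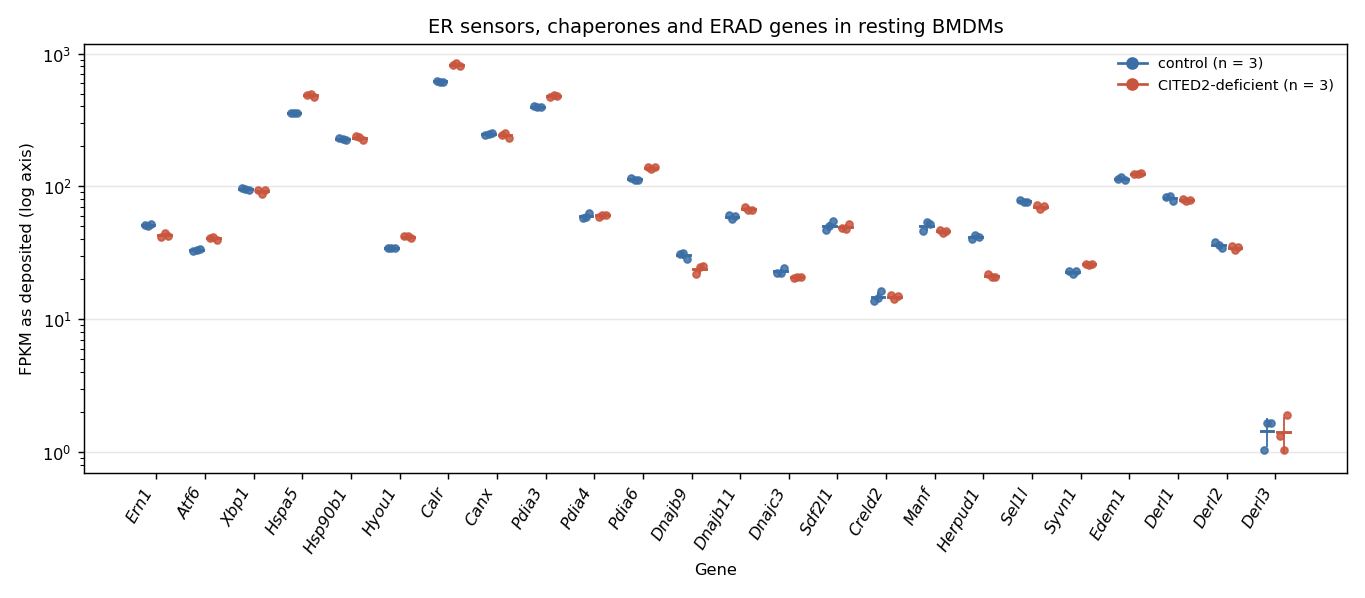
FPKM of the 24 ER sensor, chaperone and ERAD genes in each library on a log axis, with points for libraries, bars for means and vertical lines for SD (n = 3 per group). *Calr*, *Hspa5* and *Pdia3* are the most abundant and lie higher in CITED2-deficient BMDMs, while *Herpud1* lies lower.

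*Calr* and *Hspa5* were among the 3 most abundant of the 35 genes. Of the ER chaperones and lectins 3 of 5 rose, beside 16.7% of all genes tested. *Hspa5* encodes BiP, the ER member of the HSP70 family, and was at 355, 359 and 355 in control libraries and at 490, 493 and 468 in CITED2-deficient libraries. The groups lay far apart, and *Hspa5* rose by 0.44 on the log2 scale (SE 0.03; limma adjusted p = 2.21e-06). *Calr*, the soluble lectin chaperone calreticulin, had the highest level, 625, 615 and 615 in control libraries against 821, 842 and 809. It rose by 0.41 (SE 0.03; limma adjusted p = 1.71e-06). *Hyou1*, a large ER chaperone that exchanges the nucleotide of BiP, rose from a mean of 34.3 ± 0.123 to 41.9 ± 0.659 (0.28, limma adjusted p = 0.000199).
The rest of these chaperones and lectins did not pass. *Canx*, the membrane-bound counterpart of calreticulin, was at 246, 249 and 250 in control libraries and at 244, 252 and 231 in CITED2-deficient libraries, with overlapping groups (-0.034, 95% confidence interval -0.11 to 0.046). *Hsp90b1*, the ER member of the HSP90 family, was at 230, 228 and 225 against 241, 234 and 224 (0.031, 95% confidence interval -0.043 to 0.10). *Hsp90b1* passed as higher after median-ratio scaling (0.13, limma adjusted p = 0.0104). Among the protein disulfide isomerases, which form and rearrange disulfide bonds, *Pdia3* rose from a mean of 398 ± 3.88 to 481 ± 7.55 (0.27, limma adjusted p = 2.56e-05). *Pdia6* rose from 114 ± 2.37 to 139 ± 3.36 (0.28, limma adjusted p = 9.69e-05). *Pdia4* had means of 59.8 and 60.6 and overlapping groups (0.020, 95% confidence interval -0.073 to 0.11).

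The cochaperones and the small secreted proteins of the ER stress response had 1 rise and 2 falls among 6 genes. These are shares near those of all genes tested (16.7% higher and 34.6% lower). *Dnajb9*, the ERdj4 cochaperone that brings BiP to IRE1 and is a target of spliced XBP1, was at 30.9, 31.6 and 28.4 in control libraries and at 21.9, 24.5 and 25.0 in CITED2-deficient libraries. It fell, with a log2 fold change of -0.34 (SE 0.06; limma adjusted p = 0.00200). *Dnajb11*, the ERdj3 cochaperone of BiP, went the other way, from 60.6, 56.6 and 60.2 to 70.1, 66.1 and 65.9 (0.19, limma adjusted p = 0.00529). *Dnajc3* encodes p58IPK, a BiP cochaperone also known as an inhibitor of eIF2 kinases, and was at 22.4, 22.2 and 24.2 against 20.5, 20.8 and 20.8. Its fall of 0.14 was called (limma adjusted p = 0.0360) but did not pass after median-ratio scaling (-0.051). With 1 library left out the call was kept only without control replicate 2, and adjusted p was 0.0547 without control replicate 1, 0.124 without control replicate 3, and 0.0846, 0.0720 and 0.0750 without CITED2-deficient replicates 1 to 3. *Sdf2l1*, a BiP-bound protein, had means of 50.5 and 49.5 (95% confidence interval of the log2 fold change -0.16 to 0.11). *Creld2*, a disulfide isomerase-like protein, had means of 14.8 in both groups (95% confidence interval -0.15 to 0.16). *Manf*, a secreted ER stress protein that also binds BiP, was at 45.8, 54.0 and 52.1 against 47.1, 44.8 and 45.9 and did not pass (-0.14, 95% confidence interval -0.27 to -0.0011). Without control replicate 1 it passed as lower (-0.20, limma adjusted p = 0.00707).

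*Herpud1* had the largest fall of the 35 genes. It encodes HERP, an ER membrane protein that organizes the HRD1 complex of ER-associated degradation (ERAD), in which misfolded proteins are moved to the cytosol and ubiquitinated. Its FPKM was 40.2, 43.2 and 41.4 in control libraries and 21.9, 20.9 and 20.9 in CITED2-deficient libraries. The CITED2-deficient level was 0.510 times the control level, and each group was tight. The log2 fold change of *Herpud1* (chromosome 8, 94386438 to 94395377 in mm10) was -0.94 (SE 0.04; limma adjusted p = 2.99e-07) and -0.85 after median-ratio scaling. It ranked 11474th of 11687 genes by log2 fold change.

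The other members of the HRD1 pathway moved less. *Syvn1*, the ubiquitin ligase HRD1 itself, was at 23.0, 22.0 and 23.0 in control libraries and at 26.0, 25.6 and 26.0 in CITED2-deficient libraries, and it rose (0.18, limma adjusted p = 0.00629). *Edem1*, a mannosidase-like lectin that marks glycoproteins for degradation, rose from a mean of 114 ± 3.26 to 124 ± 0.853 (0.12, limma adjusted p = 0.0105). *Sel1l*, the adaptor of HRD1, was at 79.6, 76.4 and 76.3 against 72.1, 67.5 and 71.7. Its fall of 0.14 was called (limma adjusted p = 0.0161), but it was at -0.040 after median-ratio scaling and did not pass. The call was also lost without control replicate 1 (adjusted p = 0.0624) and without CITED2-deficient replicate 2 (adjusted p = 0.0527). Without that last library 3 of the 35 genes were called lower in place of 5, and 3537 of all genes in place of 4044. The derlins, which form part of the channel, did not pass. *Derl1* had means of 81.9 and 79.5 (95% confidence interval of the log2 fold change -0.13 to 0.043), and *Derl2* had 36.1 and 34.5 (-0.17 to 0.043). *Derl3*, known from plasma cells, had 1.44 and 1.42, and with 15 to 38 fragments per library its interval was wide (-0.42 to 0.38).

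Among the 9 genes with an ERSE before the start, 4 rose (*Hspa5*, *Calr*, *Pdia6* and *Syvn1*), 1 fell (*Dnajc3*) and 4 did not pass (*Hsp90b1*, *Canx*, *Creld2* and *Derl3*), beside 16.7% higher and 34.6% lower of all genes tested. The call of *Dnajc3* was lost after median-ratio scaling (-0.051) and in 5 of the 6 fits with 1 library left out. *Hsp90b1* passed as higher after median-ratio scaling (0.13, limma adjusted p = 0.0104). *Herpud1*, the gene with ERSE-II, fell. Of the 4 genes with the C/EBP-ATF core, *Atf3*, *Chac1* and *Asns* rose, and *Herpud1*, which also holds this core, fell. With 1 library left out, the call of *Chac1* was kept in 2 fits. Without CITED2-deficient replicate 1 or 2 it fell below the filter. These counts are descriptions of few genes.

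Lists of other ER genes, none of them among the 35, were read in the same fit, in which 16.7% of all genes rose and 34.6% fell. Of 19 tested ER folding enzymes 3 rose and 5 fell, with a median log2 fold change of 0.0069. *Ero1lb* (0.28), *Ero1l* (0.14) and *P4hb* (0.11), which drive disulfide formation, were the 3 that rose, and *Sdf2* (-0.31), *Dnajc10* (-0.22) and *Txndc12* (-0.19) had the largest falls. Of 22 other ERAD genes 1 rose, *Aup1* (0.094), and 8 fell, led by the cytosolic glycanase gene *Ngly1* (-0.35), the ubiquitin-conjugating enzyme gene *Ube2g2* (-0.32) and the ligase gene *Rnf5* (-0.26). Those 8 falls are a share near that of all genes tested, and the median of the list was -0.053. Of 26 genes of the translocon, signal peptidase and oligosaccharyltransferase, which bring proteins into the ER, 2 rose and 10 fell, with a median of -0.11, near the -0.10 of all genes tested. *Sec61g* (-0.44), *Sec11c* (-0.40) and *Srp14* (-0.36) had the largest falls, and *Stt3b* (0.14) and *Srpr* (0.097) rose. After median-ratio scaling these 3 lists had 8 rises and 2 falls, 7 rises and 4 falls, and 6 rises and 6 falls. With that scaling 22.5% of all genes tested rose and 22% fell. Of 13 tested regulators of ER stress outside the 35 genes, 3 rose and 4 fell. *Creb3l1*, an ER-bound transcription factor known from matrix-producing cells, was at 1.93, 2.07 and 2.39 in control libraries and at 5.09, 2.98 and 3.11 in CITED2-deficient libraries (0.57, limma adjusted p = 0.0188). Its highest value was in CITED2-deficient replicate 1, the library with the highest fibroblast marker sum. *Wfs1*, an ER membrane protein, rose (0.45), as did *Nfe2l1* (0.18), and *Creb3l2* (-0.38), *Ddrgk1* (-0.28) and *Mbtps1*, the protease that cuts ATF6 (-0.20), were the largest falls.

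**Figure D4:**
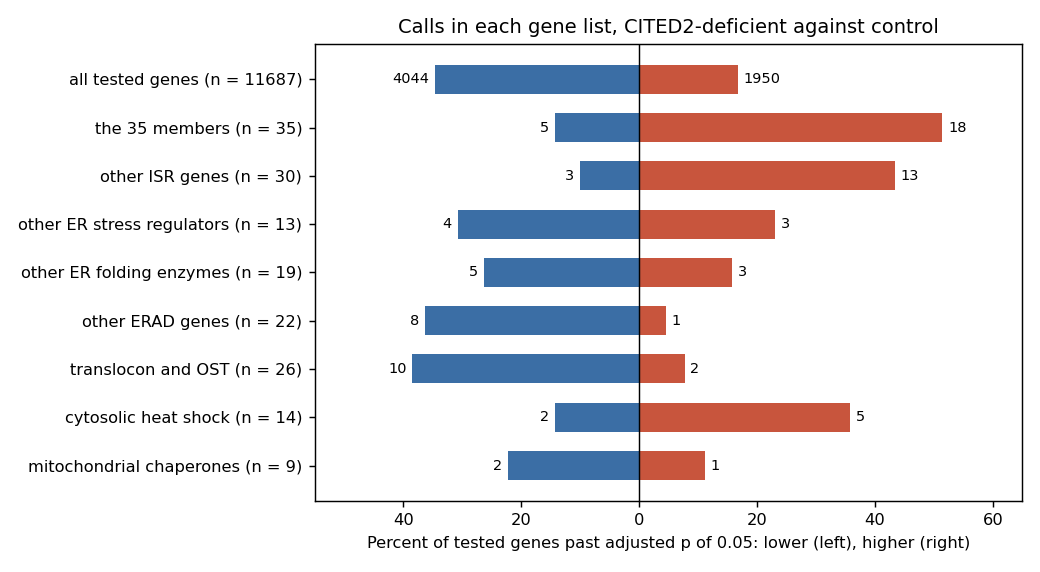
Percent of the tested genes of each list that passed an adjusted p of 0.05 in limma, with genes lower in CITED2-deficient BMDMs to the left and higher to the right; the numbers at the bars are genes. The 35 genes (18 higher, 5 lower) and the other ISR genes (13 higher, 3 lower) lean right, while all tested genes (1950 higher, 4044 lower) lean left.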

How the data were processed

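Total RNA of BMDMs was depleted of ribosomal RNA and made into stranded libraries. Per the labels and the methods, the authors aligned the reads with STAR (mm10) and computed FPKM in Cuffdiff with the GENCODE annotation. These FPKM were deposited with 1 value per gene and library, not pooled. The sources used here give no tool versions. Fragment numbers were recovered with the mean transcript length per gene of GENCODE M21 (22239 genes matched, of which 96.1% gave whole fragments, to a tolerance of 0.02, in each of the 6 libraries). Coordinates of genes are from M21, which uses mm10, and those of the promoter windows are from RefSeq. The 2 annotations can place a start differently. By M21 the windows of *Hspa5*, *Atf3* and *Asns* lie inside the gene.

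FPKM were tested with limma 3.58.1 in R 4.3.3 as log2(FPKM + 1), with a variance trend, 2-sided, for the 11687 genes with a mean of at least 1, and adjusted by Benjamini-Hochberg over all of them. Fold changes on this scale understate low genes. The steps were tested on simulated data. An exact permutation test of 3 against 3 libraries cannot go below 0.1 and was not used. The 35 genes and the other lists were chosen with earlier results of these data known. All 35 are reported, and of other lists the 3 largest called rises and falls. From the marker lists the plan named only genes that carry the summed level. *Lyz2*, *Mars*, *Eif2ak1*, *Eif2ak4*, *Elane*, *Mpo*, *Prtn3*, *Retnlg*, *Mzb1*, *Ms4a1*, *Pax5*, *Tnfrsf17*, *Cd79a* and *Cd79b* were named outside these rules, after their values were seen. So were *Fcgr1* and *Itgam*. A planned reading of protein ends was not run. Replicate numbers did not pair the libraries (r of 0.0078 to 0.040 between deviations of same-numbered libraries).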

Additional observations from a re-analysis of the deposited data

How the results depend on the processing

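Of the 18 genes called higher, 15 were called higher in every alternative in which they could be fitted, and of the 5 called lower, *Ern1*, *Dnajb9* and *Herpud1* were. The alternatives were pseudocounts of 0.1 and 0.5, no filter, a mean FPKM of at least 5, median-ratio scaling, quantile normalization, no variance trend, array weights, a replicate block, limma-voom with TMM scaling on recovered fragments, and each library left out. Median-ratio scaling gave 2576 lower genes of all tested and 3 of the 35, and limma-voom gave 2618 and 3, against 4044 and 5. With a fold change of at least 2, 435 and 180 of all genes and 2 and 0 of the 35 were higher and lower. With 1 library left out, 3 to 5 of the 35 were lower, and 3411 to 3698 of all genes. The replicate numbers share only a number. With a replicate block 19 of the 35 were higher and 4 lower (1895 and 3813 of all genes). Over all alternatives, 25 values of single genes lost their call and 13 gained one. Genes without a call that changed sign after median-ratio scaling and in limma-voom were *Xbp1* (0.036 and 0.045), *Canx* (0.062 and 0.069), *Sdf2l1* (0.068 and 0.078, and 0.018 after quantile normalization), *Derl1* (0.053 and 0.062), *Derl2* (0.029 and 0.039) and *Derl3* (0.037 and 0.084, and 0.014 with array weights). Over the libraries left out, the log2 fold change ranged from -0.063 to 0.00015 for *Canx*, -0.0043 to 0.053 for *Pdia4*, -0.077 to 0.028 for *Sdf2l1*, -0.042 to 0.073 for *Creld2* and -0.16 to 0.098 for *Derl3*. The depth limits *Chac1* and *Derl3*, which rest on 15 to 79 fragments per library.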

Other observations

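Chaperones outside the ER were read in the same fit, in which 16.7% of all genes rose and 34.6% fell. Of 14 tested cytosolic heat shock genes 5 rose and 2 fell in CITED2-deficient BMDMs, with a median log2 fold change of 0.0090. The largest rises were in *Hspb1* and *Hspa1b*, members at low levels. Both had their highest value in CITED2-deficient replicate 1 (4.47 and 2.51), the library with the highest fibroblast marker sum. *Hspb1*, a small heat shock protein, rose from a mean FPKM of 1.03 to 3.45 (1.11, adjusted p = 0.000359 from limma), *Hspa1b*, an inducible HSP70, from 0.850 to 1.99 (0.67, adjusted p = 0.00837), and *Hsph1* from 14.5 to 17.5 (0.26, adjusted p = 0.00624). *St13*, an HSP70 cofactor, fell (-0.19), as did *Hspa4* (-0.12). Of 9 mitochondrial chaperones and proteases 1 rose, *Hspa9* (0.084), and 2 fell, *Clpx* (-0.28) and *Trap1* (-0.11), and their median was -0.058.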
